A study of Homo sapiens with 12 samples.

Results

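The integrin and laminin subunits are 38 of the 57773 genes in a total RNA sequencing table of the established ovarian cancer line ES-2. They are the genes whose symbol names a subunit of either family and comprise 18 integrin alpha, 8 integrin beta and 12 laminin genes. The cells received control siRNAs (siC) or siRNAs against the RNA-binding proteins IGF2BP1 (siI1), IGF2BP2 (siI2) or IGF2BP3 (siI3), with 3 libraries in each of the 4 groups. No group carried any other treatment per the labels, all groups are 1 cell line, and the labels give neither the siRNA sequences, nor the time after transfection, nor whether replicate libraries stem from separate cultures. The p-values therefore reflect the spread among these libraries, which may be technical. The series asks how IGF2BP1 affects miRNA-directed repression in tumour cells.

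Integrins are cell surface receptors built from 1 alpha and 1 beta chain, and the pairing sets which matrix protein a cell can bind. Laminins are basement membrane proteins of an alpha, a beta and a gamma chain, which integrins of the alpha3 and alpha6 kind bind, while alpha5 and alphaV integrins bind the RGD motif of fibronectin, vitronectin and related proteins. In tumour cells these receptors are known for their part in adhesion, migration and invasion. IGF2BPs bind mRNAs and affect their stability, localisation and translation.

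Levels are in FPM, the depth-normalised fragment unit of the table, and fold changes are differences of log2(FPM + 1), which understate the change of low genes. The libraries held 3274590 to 11110357 reads without spike-in RNAs, and 3 reads corresponded to 0.32 to 0.73 FPM. Each targeted mRNA had its 3 lowest values in its own knockdown: IGF2BP1 was at 25.2% of its siC mean in siI1, IGF2BP2 at 16.8% in siI2 and IGF2BP3 at 19.2% in siI3. IGF2BP3 was also below every siC library in siI1 and siI2, at 64.7% and 63.5% of its siC mean, differences that did not pass (limma adjusted p = 0.19 and 0.2). The level of a gene followed its GC content differently in siC replicates 1 and 3 (slopes of -0.46 and -0.43 log2 units per 10 points of GC) than in the other 10 libraries (-0.09 to 0.21). Library siI3 replicate 3 had a read for 31369 genes, against 21432 to 27071 elsewhere. A second fit that removes each library's trend with GC content and transcript length, called corrected here, is therefore given beside most results. In the corrected fit the log2 fold change of IGF2BP3 against siC was -0.07 in siI1 and -0.11 in siI2 (limma adjusted p = 0.899 and 0.853). Among the cell type markers, KRT7 (347 to 938 FPM), KRT8, KRT18, VIM (157 to 998 FPM), CDH2 and SPARC were read in every library, while the epithelial genes EPCAM and CDH1 had at most 4 and 6 reads. The 5 leukocyte markers summed to 0.13 to 3.64 FPM, with PTPRC at 5 reads or fewer, the 2 haemoglobin genes to 1.06 FPM at most, and of 2 endothelial markers CDH5 lay at 54.8 to 149 FPM and VWF at 15 reads or fewer.

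The alpha chain gene ITGA3 stood far above all other integrin and laminin transcripts. It encodes the alpha3 chain, which pairs with beta1 and binds laminins. ITGA3 lay at 835, 1253 and 838 FPM in the siC libraries, 1330, 1168 and 1214 in siI1, 1471, 1010 and 1244 in siI2 and 1149, 1150 and 760 in siI3. It made up 75.7% of the summed FPM of all integrin alpha genes in siC and 77.4% to 79.2% in the knockdowns. Its groups overlapped in 5 of the 6 comparisons, and ITGA3 passed the test in none (limma adjusted p from 0.336 to 0.994).

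Per kilobase of the longest annotated transcript, a rough allowance for gene length, the mean level over all 12 libraries was 204 FPM per kb for ITGA3. It was 60.5 for LAMB3, 38.9 for ITGA5, 34.4 for ITGB5, 22.7 for LAMB1, 20.3 for ITGB1, 16.05 for LAMB2, 15.4 for LAMC1, 12.3 for ITGB2 and 11.9 for ITGA6. Some chains that assemble into 1 molecule were thus read at unlike levels on this scale, while LAMB1 and LAMC1, which also encode partner chains, lay closer together. The scale is approximate, because the isoforms present were not determined and the levels were not corrected for GC content. LAMB3, the beta3 chain of the epithelial laminin that also holds the product of LAMA3, stood at 60.5 FPM per kb beside 0.64 for LAMA3. The beta1 chain is the partner of many alpha chains, alpha3 among them, and its mRNA lay at 20.3 FPM per kb, below ITGA3. Hemidesmosome formation needs the beta4 chain, and its gene ITGB4 was at 0.24 FPM per kb, from 2 to 30 reads.

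**Figure D1:**
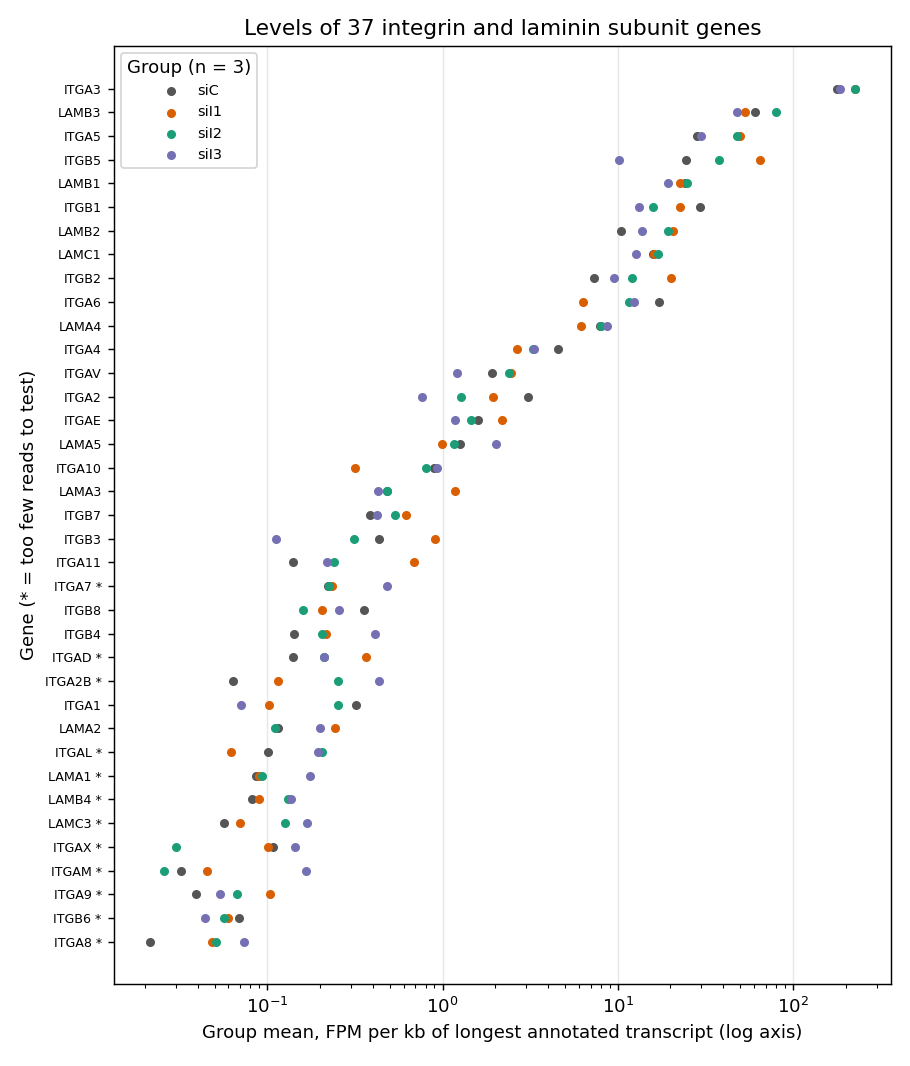
Group mean (points, n = 3 libraries) of 37 of the 38 members in FPM per kilobase of its longest transcript, on a log axis, 1 row per gene in the order of the mean over all libraries; asterisks mark the 12 genes with too few reads to test. ITGA3 lies at 178 to 227 FPM per kb in the 4 groups, above every other member, and LAMA3 and ITGA11 lie to the right of their other groups in siI1.

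In all, 26 of the 38 members had enough reads to be tested, and 11 of them differed in at least 1 of the 6 comparisons between groups. The other 12 (ITGA2B, ITGA7, ITGA8, ITGA9, ITGAD, ITGAL, ITGAM, ITGAX, ITGB6, LAMA1, LAMB4 and LAMC3) never exceeded 3.72 FPM or 21 reads in a library. Of these, 6 had their highest value in siI3 replicate 3, where the 12 summed to 20.4 FPM against 2.90 to 10.2 FPM in the other libraries. A member was called where its limma p-value, adjusted by Benjamini-Hochberg over all 13782 genes tested, was below 0.05.

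Knockdown of IGF2BP1 changed 8 of the 26 tested members against siC, 6 upward and 2 downward. ITGB5, ITGB2, ITGA11, ITGA5, LAMB2 and LAMA3 rose to between 1.77 and 4.93 times their siC means, and ITGA6 and ITGA10 fell to 36.9% and 35.4%. Of all genes tested, 8.18% were called in this comparison, 519 upward and 609 downward. The corrected fit called the same 8 members, where it called 6.59% of 13571 genes. The median log2 fold change of the 26 members was 0.21, beside -0.05 over all genes tested. After correction the members' median was 0.04, beside -0.0008 over all genes. Knockdown of IGF2BP3 lowered 3 of the 26 tested members (ITGB5, ITGA2 and ITGA1), or 11.5%, and raised none by limma. At an unadjusted p below 0.05 limma had 1 increase, and edgeR called none upward. Of all genes 10.6% were called, and most of those calls were also downward (317 up and 1143 down). The members' median was -0.33, beside -0.05 over all genes. The corrected fit also called 3 members in siI3, all lower, with LAMB3 in place of ITGA1. Beside them stood 6.59% of all genes, 347 up and 548 down. The members' corrected median was -0.14, beside 0.02 over all genes. Knockdown of IGF2BP2 changed 1 member, LAMB2, beside 1.51% of all genes (79 up and 129 down). None passed limma's adjusted p after correction (1.38% of all genes). In that fit 8 members had an unadjusted p below 0.05, beside 2273 of all 13571 genes. Without the correction, edgeR called 3 members in siI2, all higher, beside 185 of all genes (115 up and 70 down). The members' median in siI2 was 0.02, beside -0.09 over all genes. After correction these medians were 0.05 and -0.007.

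**Figure D2:**
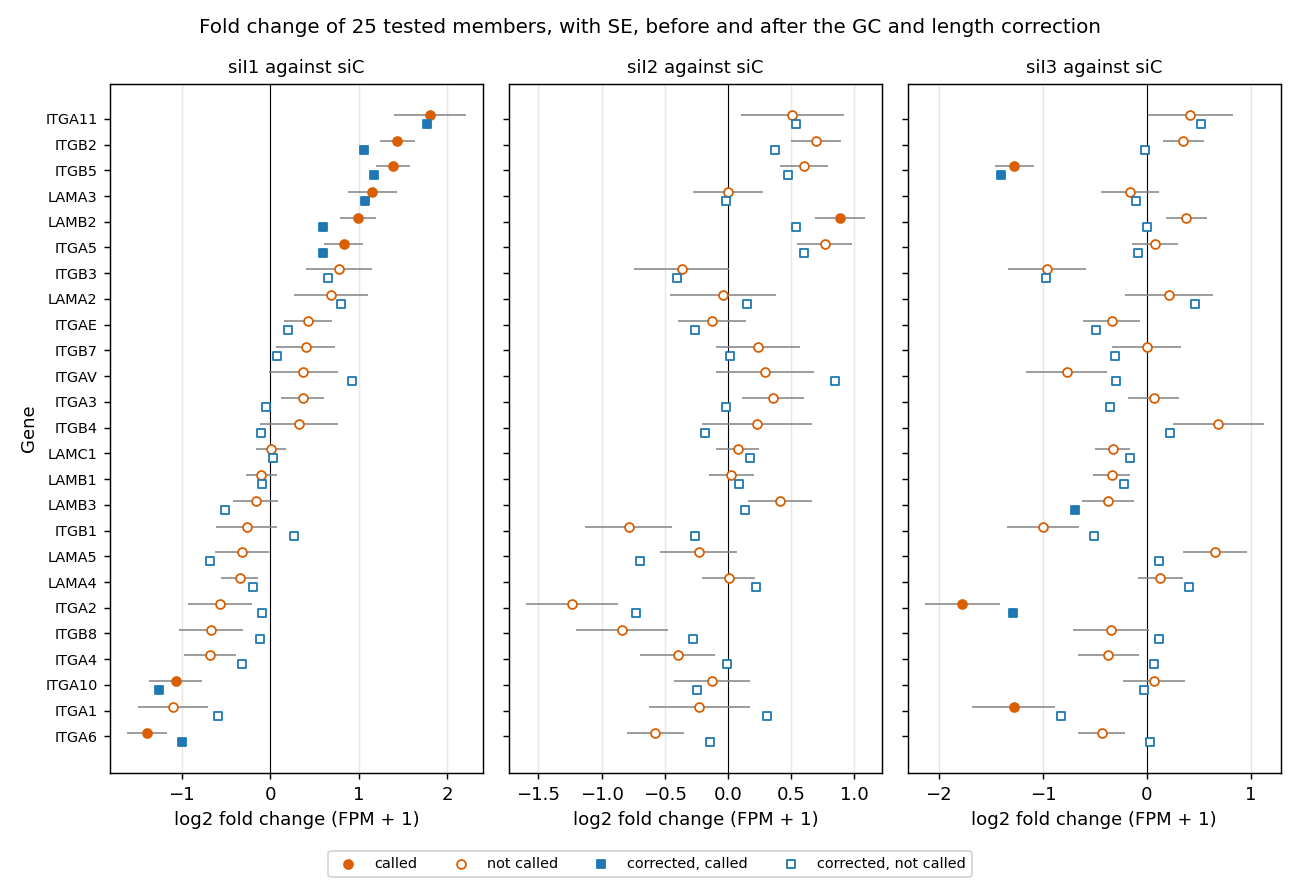
Log2 fold change of 25 of the 26 tested members in each knockdown against siC (horizontal axis, log2(FPM + 1) scale), with circles and SE bars for the fit and squares for the fit corrected for GC content and length. Filled marks passed an adjusted p of 0.05. ITGB5 lies at 1.39 in siI1 and -1.27 in siI3.

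The comparisons against siC share the 3 control libraries, of which replicates 1 and 3 differ from replicate 2 in their GC trend. Across the 26 members the log2 fold change rose with transcript GC content (Spearman's rho 0.46 for siI1, 0.54 for siI2 and 0.60 for siI3), a description over genes that share these libraries. After the correction the values were 0.08, -0.01 and 0.03. With siC replicates 1 and 3 both left out, limma called no member in any knockdown against siC; only 1 control library then remains, assumed to vary like the other groups. Without the filter on low values 10 of the 23 calls over the 6 comparisons ended (adjusted p from 0.054 to 0.144): both of ITGA5 and of ITGA10, ITGB5 and LAMA3 between siI1 and siI2, ITGA6 and ITGA11 between siI1 and siI3, LAMB2 in siI2 and ITGA1 in siI3. With only the 6 libraries compared, ITGA5 between siI1 and siI3 and LAMB2 in siI2 did not pass (adjusted p = 0.0595 and 0.117).

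ITGB5 was called in 5 of the 6 comparisons, and it moved in opposite directions in siI1 and siI3. Its product, the beta5 chain, pairs with alphaV in a receptor for vitronectin. ITGB5 (ENSG00000082781) was at 109, 119 and 95.4 FPM in siC, 305, 237 and 313 in siI1, 189, 148 and 157 in siI2, and 52.2, 43.3 and 37.2 in siI3. No 2 of the 4 groups overlapped: siI1 was highest, then siI2, siC and siI3. Against siC the mean was 2.64 times as high in siI1 (log2 fold change 1.39, SE 0.19, limma adjusted p = 0.000478) and at 41% in siI3 (-1.27, SE 0.19, adjusted p = 0.00187). The corrected values were 1.17 and -1.40 (adjusted p = 0.00011 and 6.69e-05). The rise to 1.53 times in siI2 did not pass (0.60, adjusted p = 0.0996). Compared directly, siI1 exceeded siI3 by 2.66 log2 units (adjusted p = 2.31e-07) and siI2 exceeded siI3 by 1.88 (adjusted p = 4.31e-05), with corrected values of 2.58 and 1.88 (adjusted p = 1.48e-08 and 1.72e-06). Between siI1 and siI2 the difference was 0.78 (adjusted p = 0.0383; corrected 0.70, adjusted p = 0.00833). That last call ended when any 1 of 9 libraries was left out (adjusted p from 0.05 to 0.193): siC replicates 1 and 3, any siI1 or siI2 library, or siI3 replicate 2. The other 4 ITGB5 calls held without each of the 12 libraries in turn, and the 2 against siC were lost with siC replicates 1 and 3 both out (adjusted p = 0.0947 and 0.0974).

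ITGB5 spans chr3:124761948-124901418 on the minus strand (GRCh38). ITGB5, ITGA5 and LAMB2 are the 3 members called higher in siI1 that are read at the highest levels. In siI3 they lay at 41%, 106% and 130% of their siC means, and only the ITGB5 difference passed. The start regions of these 3 genes are shown, a choice made from these same results. They run from 250 bases before to 50 after the start, minus strand throughout, from RefSeq (GRCh38.p14). Capitals mark GC boxes (GGGCGG on either strand) and AP-1 letters (TGANTCA), motifs bound by Sp1-like factors and by Fos and Jun proteins.
ITGB5, chr3:124887316-124887615: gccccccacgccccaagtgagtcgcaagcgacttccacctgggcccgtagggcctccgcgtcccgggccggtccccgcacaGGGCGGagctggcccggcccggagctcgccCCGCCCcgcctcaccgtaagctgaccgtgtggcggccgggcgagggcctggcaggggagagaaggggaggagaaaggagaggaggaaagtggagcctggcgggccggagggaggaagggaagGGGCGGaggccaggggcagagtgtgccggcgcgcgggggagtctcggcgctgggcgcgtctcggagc
ITGA5, chr12:54419217-54419516: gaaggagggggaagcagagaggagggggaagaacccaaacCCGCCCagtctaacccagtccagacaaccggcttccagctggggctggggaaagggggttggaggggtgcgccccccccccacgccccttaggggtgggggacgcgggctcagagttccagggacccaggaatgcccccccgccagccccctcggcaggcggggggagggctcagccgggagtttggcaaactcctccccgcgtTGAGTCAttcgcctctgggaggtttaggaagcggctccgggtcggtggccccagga
LAMB2, chr3:49133001-49133300: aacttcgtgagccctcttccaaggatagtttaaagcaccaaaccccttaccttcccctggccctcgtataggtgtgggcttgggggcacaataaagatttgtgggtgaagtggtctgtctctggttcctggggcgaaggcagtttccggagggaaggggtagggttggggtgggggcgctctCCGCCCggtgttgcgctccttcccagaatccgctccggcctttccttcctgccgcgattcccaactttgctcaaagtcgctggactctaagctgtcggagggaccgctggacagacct
The ITGB5 window held 3 GC boxes and the other windows 1 each, and ITGA5 alone among the 3 held an AP-1 match. RefSeq lists 3 starts for ITGB5, and the one shown is nearest to the start of the transcript with the longest annotated 3′ UTR. Of 35116 RefSeq promoters of this length 45% held a GC box and 7.71% an AP-1 match. Of 33 promoters of 26 members 19 and 3 did. The AP-1 matches lay in those of ITGA5 and LAMA3 and in 1 of LAMB3. A match is a description of letters and was not tied to binding here.

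**Figure D3:**
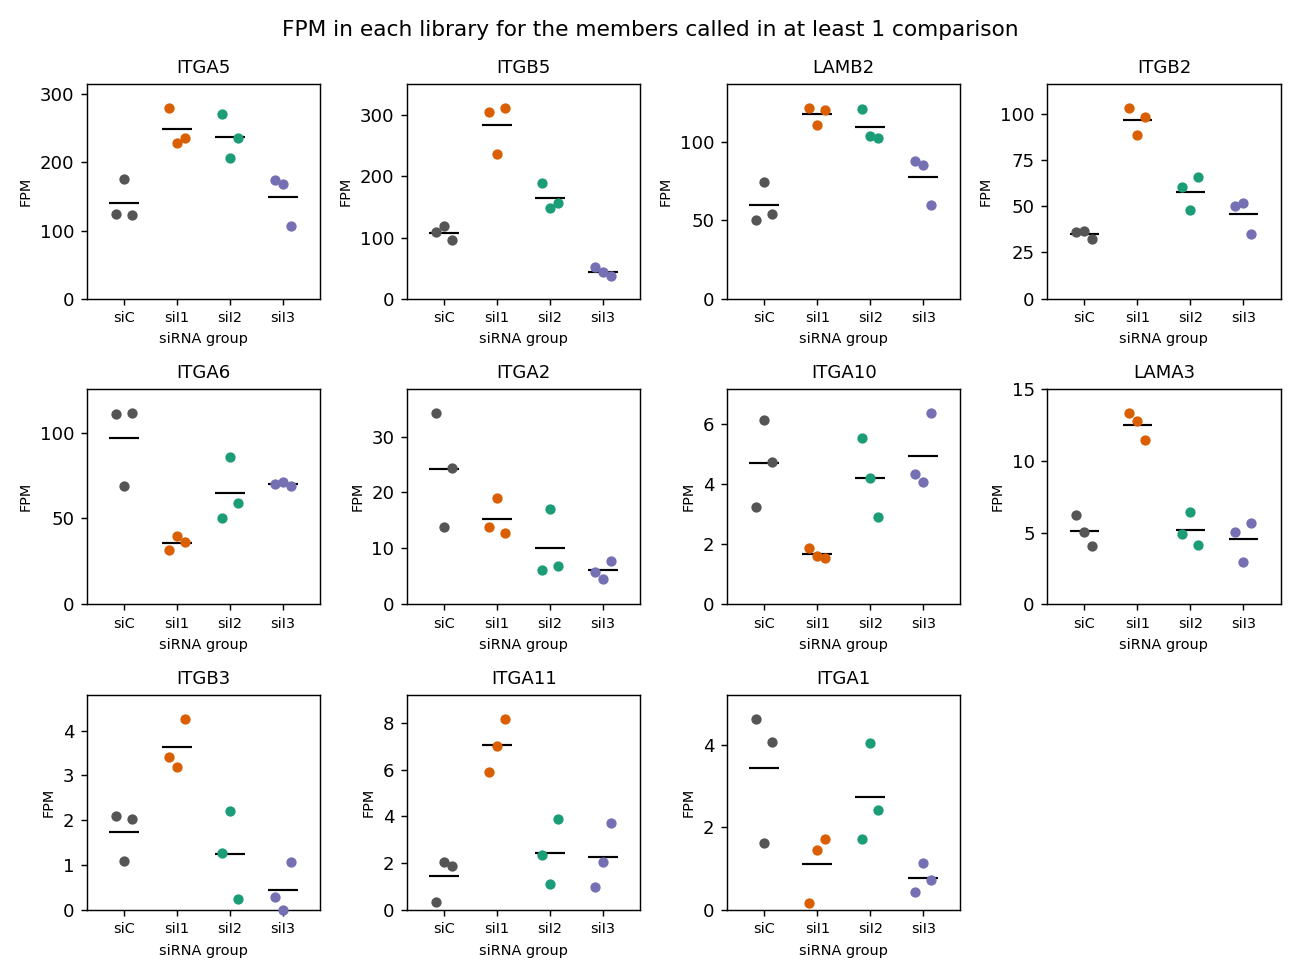
FPM in each library (points) and group mean (line) for the 11 members called in at least 1 comparison, 1 panel per gene with its own axis from 0. ITGB5 has 4 separate groups, from 37.2 FPM in siI3 to 313 FPM in siI1.

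Of the other beta chain genes, ITGB2 rose in siI1. ITGB2, which encodes the beta2 chain of leukocyte integrins, was at 35.9, 36.8 and 32.5 FPM in siC, 103, 88.8 and 98.1 in siI1, 60.3, 47.8 and 65.7 in siI2, and 49.95, 52.0 and 34.7 in siI3. All siI1 libraries lay above every other library. The log2 fold change of siI1 against siC was 1.44 (SE 0.20, limma adjusted p = 0.000447; corrected 1.06, adjusted p = 0.000443), and against siI3 it was 1.09 (adjusted p = 0.00208; corrected 1.08, adjusted p = 0.000168). Neither call was lost when any 1 library was left out, and the first was lost with siC replicates 1 and 3 both out (adjusted p = 0.0732). The alpha partners of beta2 on leukocytes, ITGAL, ITGAM, ITGAX and ITGAD, were all among the untested genes, and the leukocyte markers summed to 0.32 to 0.81 FPM in siC and 1.12 to 1.71 FPM in siI1. CD14 had 1 to 2 reads in siC and 3 to 10 in siI1, and its part in the result was not tested. The antisense gene ITGB2.AS1, at 14.5 to 28.4 FPM, overlaps the ITGB2 locus by name, and the sources used here do not give the strand setting of the counts, so reads of the 2 cannot be told apart with certainty.

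ITGB3 encodes the beta3 chain, another partner of alphaV. It was at 2.09, 1.08 and 2.03 FPM in siC, 3.42, 3.20 and 4.27 in siI1, 1.28, 2.20 and 0.242 in siI2, and 0.281, 0 and 1.06 in siI3. It ranged from 0 to 25 reads, so single reads weigh on each value. ITGB3 passed only between siI1 and siI3 (log2 difference 1.74, SE 0.38, limma adjusted p = 0.00872; corrected 1.63), a call lost without siI3 replicate 2 (adjusted p = 0.0557), the library at 0. The order of its siI1, siC and siI3 means was that of ITGB5, but neither difference from siC passed (adjusted p = 0.192 and 0.103).

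ITGB1 encodes the beta1 chain shared by many integrins. It was at 160, 50.6 and 125 FPM in siC, 61.5, 112 and 83.6 in siI1, 49.0, 85.8 and 45.8 in siI2, and 46.3, 54.8 and 48.4 in siI3. The siC libraries lay far apart, with replicates 1 and 3 high, and the transcript has 40% GC. ITGB1 passed in no comparison before correction (adjusted p from 0.0732 to 0.827), and after it siI1 exceeded siI3 by 0.77 (adjusted p = 0.047). The pseudogene ITGB1P1 (2.25 to 26.4 FPM) was likewise highest in siC replicates 1 and 3, at 26.4 and 22.7 FPM against 5.39 FPM in siC replicate 2, and the sources used here do not say how reads were divided between the 2. ITGB4, ITGB7 and ITGB8 lay at 0.35 to 5.32 FPM and passed in no comparison.

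Summed over all 8 beta genes, the level per library (mean ± SD, n = 3) was 476 ± 30.2 FPM in siI1, 288 ± 14.3 in siI2, 261.6 ± 48.9 in siC and 146 ± 12.9 in siI3. The sums of siI1 lay above and those of siI3 below every other library. A few genes carry these sums. In siI1, siC and siI3 the means were 285, 108 and 44.2 FPM for ITGB5, 85.7, 112 and 49.8 for ITGB1, and 96.8, 35.1 and 45.5 for ITGB2. ITGB1 did not pass against siC in any knockdown. The 18 alpha genes summed to 1289 ± 228 FPM in siC, 1589 ± 107 in siI1, 1605 ± 232 in siI2 and 1288 ± 261 in siI3, and the 12 laminin genes to 667 ± 76, 681 ± 31.3, 817 ± 81.2 and 590 ± 112. The sums were not tested.

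Among the alpha chains for laminin, ITGA6 fell in siI1 while ITGA3 did not pass. ITGA6, whose product joins beta1 or, in hemidesmosomes, beta4, was at 111, 68.9 and 112 FPM in siC, 31.4, 40.0 and 36.1 in siI1, 50.04, 86.0 and 58.9 in siI2, and 69.9, 71.0 and 68.8 in siI3. The siI1 libraries were the 3 lowest of the 12. The log2 fold change of siI1 was -1.39 against siC (SE 0.23, limma adjusted p = 0.00186; corrected -0.99, adjusted p = 0.00078) and -0.95 against siI3 (adjusted p = 0.0163; corrected -1.02, adjusted p = 0.000293). The difference from siI2 passed after correction only (-0.81, adjusted p = 0.0746; corrected -0.85, adjusted p = 0.00362). The call against siC held without each single library and was lost with siC replicates 1 and 3 both out (adjusted p = 0.369). The call against siI3 was lost without siI1 replicate 1 or 3 or siI3 replicate 1 or 2 (adjusted p from 0.0546 to 0.0869).

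The 4 collagen-binding alpha chains divided. ITGA11, an alpha chain best known from fibroblasts, was at 0.348, 2.05 and 1.89 FPM in siC, 5.90, 7.04 and 8.21 in siI1, 2.34, 1.10 and 3.88 in siI2, and 0.982, 2.03 and 3.72 in siI3. All siI1 values lay above every other library, on 3 to 48 reads. Its log2 fold change in siI1 against siC was 1.81 (SE 0.41, limma adjusted p = 0.014; corrected 1.77, adjusted p = 0.0142), lost without siC replicate 1 or siI1 replicate 3 (adjusted p = 0.101 and 0.0701). Against siI3 it was 1.39 (adjusted p = 0.0487), which did not pass after correction (1.24, adjusted p = 0.054) and was lost without siC replicate 3, any siI1 library, siI2 replicate 1 or siI3 replicate 1 or 2 (adjusted p from 0.0595 to 0.204). Neither edgeR nor DESeq2 called it (adjusted p = 0.116 and 0.0683), nor did limma with RLE or upper-quartile factors or a pseudocount of 0.25, and over all alternatives the adjusted p ran from 0.0192 to 0.204.

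ITGA10, whose product is known from cartilage, moved the other way in siI1. It was at 3.25, 6.15 and 4.74 FPM in siC, 1.86, 1.599 and 1.54 in siI1, 5.54, 4.23 and 2.91 in siI2, and 4.35, 4.07 and 6.38 in siI3. The siI1 libraries were the 3 lowest. The log2 fold change was -1.07 against siC (SE 0.30, limma adjusted p = 0.0395; corrected -1.25, adjusted p = 0.0123) and -1.13 against siI3 (adjusted p = 0.0295; corrected -1.22, adjusted p = 0.00867). The first call was lost without any 1 of the siC or siI1 libraries or siI3 replicate 1 (adjusted p from 0.0544 to 0.144), and the second without any 1 of the siI1 or siI3 libraries (0.0581 to 0.103).

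ITGA2, the alpha2 chain of a major collagen receptor, fell in siI3. It was at 34.2, 13.8 and 24.4 FPM in siC, 13.8, 19.0 and 12.8 in siI1, 6.17, 17.1 and 6.79 in siI2, and 5.75, 4.57 and 7.80 in siI3. The siI3 values lay below every siC and siI1 value and overlapped those of siI2. The siI3 mean lay at 25% of the control mean (log2 change -1.77 with an SE of 0.36, limma adjusted p = 0.0128; corrected -1.29, adjusted p = 0.0147), a call lost without siC replicate 1 or 3 or siI3 replicate 1 or 2 (adjusted p from 0.051 to 0.0874). ITGA1 lay lower, at 4.64, 1.62 and 4.06 FPM in siC, 0.155, 1.44 and 1.71 in siI1, 1.70, 4.04 and 2.42 in siI2, and 0.421, 1.14 and 0.709 in siI3. It encodes the alpha1 chain, which also binds collagen. Its fall in siI3 (-1.28, SE 0.40, adjusted p = 0.0494) did not pass after correction (-0.82, adjusted p = 0.126), nor without siC replicate 1 or 3, siI1 replicate 2 or 3, siI2 replicate 1 or any siI3 library (adjusted p from 0.0552 to 0.217). It was not called by edgeR (adjusted p = 0.0579) or by limma with RLE or upper-quartile factors or a pseudocount of 0.25, and 7 of 25 alternatives kept the call (adjusted p from 0.0165 to 0.884 over all). The transcripts of ITGA1 and ITGA2 have 38.8% and 40.2% GC, and siC replicates 1 and 3, the libraries with the negative GC slopes, hold their highest control values.

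ITGA5 encodes the alpha5 chain of the main fibronectin receptor. It was at 124, 176 and 123 FPM in siC, 281, 229 and 237 in siI1, 271, 207 and 236 in siI2, and 175, 168 and 107 in siI3. Libraries of siI1 and siI2 lay above all those of siC and siI3. The log2 fold change in siI1 against siC was 0.83 (SE 0.22, limma adjusted p = 0.0305; corrected 0.60, adjusted p = 0.0292), lost without siC replicate 1 or 3 or siI1 replicate 1 or 3 (adjusted p from 0.0929 to 0.156). In siI2 the values were 0.77 and 0.60 and neither passed (adjusted p = 0.0791 and 0.0698). Against siI3, siI1 was higher by 0.75 (adjusted p = 0.047; corrected 0.68, adjusted p = 0.00885), a call lost without any 1 of 9 libraries, all but siC replicate 2 and siI2 replicates 2 and 3 (adjusted p from 0.0543 to 0.188). ITGAV, the alphaV chain that beta5 and beta3 need, was at 9.38 to 17.6 FPM in siC, 14.6 to 20.0 in siI1, 11.9 to 22.6 in siI2 and 3.01 to 14.5 in siI3, and passed only between siI1 and siI3 after correction (1.22, adjusted p = 0.0473). ITGA4 and ITGAE, at 9.12 to 27.1 and 3.64 to 9.01 FPM, passed in no comparison.

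Of the 12 laminin genes, LAMA3 and LAMB2 changed before correction. LAMA3 encodes the alpha3 chain of epithelial laminins. It was at 6.26, 5.07 and 4.06 FPM in siC, 13.4, 12.8 and 11.5 in siI1, 4.90, 6.43 and 4.12 in siI2, and 5.05, 2.92 and 5.67 in siI3. All siI1 values lay above every other library. LAMA3 in siI1 exceeded siC by 1.16 (SE 0.28, limma adjusted p = 0.0202; corrected 1.07), siI2 by 1.15 (adjusted p = 0.036; corrected 1.08) and siI3 by 1.32 (adjusted p = 0.00705; corrected 1.18). The difference from siI3 held without each single library. That from siC was lost without siC replicate 3 or siI1 replicate 1 or 3 (adjusted p from 0.0632 to 0.111), and that from siI2 without any siI1 library, siI2 replicate 1 or 3 or siI3 replicate 1 (adjusted p from 0.0531 to 0.157). The difference from siI2 was not called by edgeR either (adjusted p = 0.06996), and over all its alternatives the adjusted p ran from 0.0167 to 0.157.

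LAMB2, the beta2 chain of several basement membrane laminins, was at 50.1, 74.2 and 54.3 FPM in siC, 122, 111 and 120 in siI1, 121, 104 and 103 in siI2, and 87.7, 85.4 and 59.7 in siI3. Both siI1 and siI2 lay above all other libraries. Against siC the log2 fold change was 0.99 in siI1 (SE 0.20, limma adjusted p = 0.00731; corrected 0.60, adjusted p = 0.0131), lost without siC replicate 1 (adjusted p = 0.0575). In siI2 it was 0.88 (adjusted p = 0.0405; corrected 0.54, adjusted p = 0.0612), a call that 9 of the 12 single-library omissions ended, all but siC replicate 2, siI2 replicate 2 and siI3 replicate 3 (adjusted p from 0.0521 to 0.213). The transcript has 60.3% GC.

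LAMB3 was the most abundant laminin mRNA, at 263, 327 and 195 FPM in siC, 248, 192 and 251 in siI1, 401, 312 and 320 in siI2, and 251, 235 and 131 in siI3. It encodes the beta3 chain named above. No difference passed before correction, and after it LAMB3 was lower in siI3 than siC (-0.69, limma adjusted p = 0.0294), lower in siI1 than siI2 (-0.65, adjusted p = 0.0433) and higher in siI2 than siI3 (0.83, adjusted p = 0.0132). LAMB1, the beta1 chain of widespread laminins, lay at 152, 139 and 128 FPM in siC, 139, 130 and 122 in siI1, 151, 128 and 149 in siI2, and 132, 110 and 91.4 in siI3. LAMB1 and LAMC1, which encodes the partner gamma1 chain (90.7 to 143 FPM), passed in no comparison, and their log2 fold changes against siC lay between -0.34 and 0.08. LAMA2, LAMA4 and LAMA5 also passed in none. LAMA5, whose transcript has 66.4% GC, lay at 12.99 to 16.7 FPM in siC and 21.3 to 24.3 in siI3. Its log2 fold change in siI3 against siC was 0.65 (limma adjusted p = 0.161) and 0.11 after correction (adjusted p = 0.838).

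The differences between knockdowns hold no siC value, but their p-values use the spread estimated over all 12 libraries. Leaving out 1 siC library gave 6 to 10 called members between siI1 and siI3, 1 to 3 between siI1 and siI2 and 1 between siI2 and siI3. Over all genes these fits called 859 to 1059, 276 to 375 and 211 to 305. With all libraries, 8 members were called between siI1 and siI3, beside 7.05% of all genes (630 higher and 341 lower in siI1). ITGB5, ITGB2, ITGA5, ITGA11, LAMA3 and ITGB3 were higher in siI1, and ITGA6 and ITGA10 were lower. After correction 11 were called, 9 higher and 2 lower, beside 11.5% of all genes. ITGA2, ITGAV, ITGB1 and LAMB2 joined, and ITGA11 no longer passed. Between siI1 and siI2 the 2 calls were ITGB5 and LAMA3, both higher in siI1, beside 2.40% of all genes (225 higher and 106 lower). After correction there were 6 calls beside 4.75% of all genes: ITGB5, LAMA3 and ITGB2 higher, and ITGA6, ITGA10 and LAMB3 lower. Between siI2 and siI3 ITGB5 alone was called, beside 2.00% of all genes (174 higher and 102 lower in siI2). LAMB2, ITGA5 and LAMB3 joined it after correction, all higher in siI2 (3.78% of all genes). The median log2 difference of the 26 members was 0.43 between siI1 and siI3, 0.27 between siI2 and siI3 and 0.09 between siI1 and siI2, beside 0.01, -0.03 and 0.05 over all genes. After correction the members' medians were 0.34, 0.32 and 0.06, beside -0.02, -0.02 and 0.004.

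**Figure D4:**
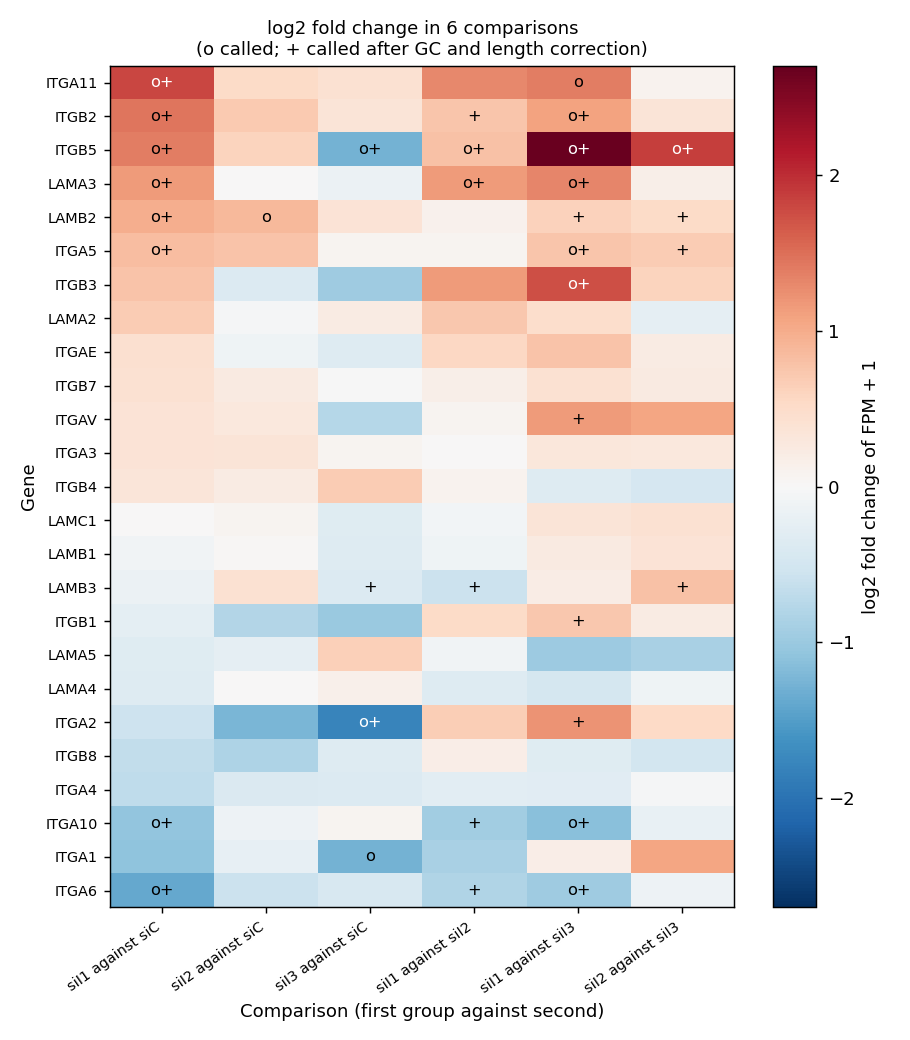
Log2 difference (colour) of 25 of the 26 tested members (rows) in the 6 comparisons (columns), with marks for calls before and after the correction for GC content and length. ITGB5 is called in 5 of the 6 comparisons, and siI1 against siI3 holds calls in both directions.

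Seed matches for 2 miRNA families known for targeting matrix and growth genes were looked for in the members' longest annotated 3′ UTR (GENCODE release 29, GRCh38), because the series is about miRNA-directed repression. Capitals mark the seed, bases 2 to 8, of the mature RefSeq sequences.
hsa-let-7a-5p: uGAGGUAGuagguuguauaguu
hsa-miR-29a-3p: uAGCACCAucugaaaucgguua
Capitals in these sites of called members mark the 7 bases that pair with the seed.
ITGA11, let-7a, chr15:68299760-68299785, minus strand: tcacaagataaattcCTACCTCcgtc
ITGB3, let-7a, chr17:47311252-47311277, plus strand: gattgtatttaccttCTACCTCttgg
ITGA1, let-7a, chr5:52953986-52954011, plus strand: agactcagagtcagcCTACCTCttga
ITGA2, miR-29a, chr5:53092674-53092699, plus strand: atatttaacagctagTGGTGCTggtg
A let-7a match was present in 4 of the 26 tested members, the 3 above and ITGB8, and in none of the 12 untested ones, against 11.2% of 11353 tested genes with a 3′ UTR. A miR-29a match was present in 5 of the 26 tested members, ITGA2, ITGB1, LAMA2 and LAMC1 among them, against 17.3% of those genes. The log2 fold change in siI1 against siC was 1.81 for ITGA11, which passed, and 0.78, -0.67 and -1.10 for ITGB3, ITGB8 and ITGA1, which did not. The matches describe letters, and repression at them was not measured here.

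Among genes that work with these subunits, the 16 basement membrane partners of laminin had 13 tested members. Of these, 5 were called higher and none lower in siI1 by limma, beside 8.18% of all genes called. Before correction none was lower at an unadjusted limma p below 0.05, and edgeR called none lower. After correction 1 was lower at an unadjusted limma p below 0.05, beside 3057 of all 13571 genes in either direction. The median log2 fold change before correction was 0.57, beside -0.05 over all genes. COL4A1 and COL4A2, the main type IV collagen chains, rose from 27.3 ± 0.634 to 73.5 ± 14.9 FPM and from 111 ± 25.4 to 284 ± 30.2 FPM (SD, n = 3; log2 fold changes 1.38 and 1.37, limma adjusted p = 0.00142 and 0.00222; corrected 1.14 and 0.98). PXDN, the peroxidase that crosslinks type IV collagen, and NID1, which links laminin to it, rose by 1.02 and 0.88. The 5th was DAG1, a laminin receptor, at 0.70, which did not pass after correction (adjusted p = 0.0733). In siI3 HSPG2, NID1 and AGRN rose (0.84, 0.78 and 0.75), beside 10.6% of all genes called. After correction NID1 alone of these passed, and COL4A2 was lower in siI3 (-0.64, adjusted p = 0.0418). In siI2, where 1.51% of all genes were called, PXDN rose (0.99, adjusted p = 0.0321). It did not pass after correction (adjusted p = 0.0689), where FREM2, a basement membrane protein gene, was higher (1.24, adjusted p = 0.0472).

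Of the 20 listed ligands of other integrins 15 were tested, and 2 rose and 1 fell in siI1 (8.18% of all genes called). FBN1, the microfibril protein fibrillin, rose by 1.51, THBS1, a secreted adhesive protein, by 1.24, and fibronectin (FN1) fell by 1.35. After correction 3 were higher and 2 lower in siI1, with MFGE8, a secreted RGD protein, at 0.79 (adjusted p = 0.0401) and TNC, tenascin C, at -0.77 (adjusted p = 0.00472) added. In siI3, where 10.6% of all genes were called, TNC rose by 1.30, while VCAM1, THBS1, FN1 and FBN1 fell (by 2.65, 1.39, 1.19 and 0.83), FBN1 no longer after correction (adjusted p = 0.0618). DAG1, FBN1 in siI3 and the genes called after correction only fall outside the limit of 4 genes per list and were named after their values were seen, to complete the counts. THBS1 (mean ± SD, n = 3) lay at 337 ± 24.3 FPM in siI1, 310 ± 23.2 in siI2, 142 ± 2.61 in siC and 54.0 ± 5.60 in siI3, and its rise in siI2 passed (1.11, adjusted p = 0.00398), as did that of FBN1 after correction (1.03, adjusted p = 0.0109). FN1 was at 134 ± 5.08, 51.8 ± 3.40, 164 ± 9.70 and 59.2 ± 13.4 FPM in siC, siI1, siI2 and siI3, whereas ITGA5, a chain of its receptor, was higher in siI1.

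The laminin-binding surface and hemidesmosome partners (12 of 13 tested) had 1 call in siI1 and 2 in siI3, where 8.18% and 10.6% of all genes were called. CD9, a tetraspanin that associates with integrins, fell in siI1 and siI3 (-1.21 and -1.47, limma adjusted p = 0.0158 and 0.00901; corrected -1.21 and -1.37). After correction the syndecan gene SDC1 was also lower in siI1 (-0.54, adjusted p = 0.0331). The proteoglycan gene CSPG4 rose in siI3 (1.04, adjusted p = 0.04) but not after correction (0.62, adjusted p = 0.16). Of the 36 focal adhesion and integrin activation genes 35 were tested, 2 rose and 2 fell in siI1, none was called in siI2 by limma or edgeR (4 at an unadjusted limma p below 0.05), and 2 rose in siI3, where 8.18%, 1.51% and 10.6% of all genes were called. An unadjusted limma p below 0.05 was found in siI2 for 3147 of all 13782 genes. In siI1 the kindlins FERMT2 and FERMT1, which activate integrins, fell by 1.31 and 0.76. TNS2, a tensin, rose by 0.91, and it and FERMT2 did not pass after correction (adjusted p = 0.0679 and 0.0782). In siI3 PARVB and ACTN1, adaptors that link integrins to actin, rose by 0.78 and 0.76 (corrected 0.68 and 0.87), and after correction PTK2, the focal adhesion kinase gene, was higher too (0.76, adjusted p = 0.0183).

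The authors' deposited table gave an FDR below 0.05 for 5 members in siI1 (ITGA6, LAMB2, ITGB5, ITGA11 and ITGB2), for none in siI2 and for 2 in siI3 (ITGB5 and ITGA2). The share of all genes below that FDR was not counted, so these counts cannot be set against a background.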

How the data were processed

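Per the labels' protocols, TRIzol-extracted total RNA of ES-2 cells was freed of ribosomal RNA and copied from random hexamers for 12 libraries. The group and replicate number of each library came from its title. Per the submitters' processing notes, the authors used cutadapt 1.6, TopHat2 2.0.13 on hg19, featureCounts 1.4.6 and edgeR 3.12; the sources used here do not give the annotation release, strand setting or filters. The deposited signal is FPM per gene and library, normalized by the authors, with 92 spike-in features that were left out. Dividing by the value of 1 read gave whole numbers for 100% of values (tolerance 0.01), so whole read counts were recovered from the deposited values. The authors' log2 fold changes and FDR values (adjusted p-values), per the file headers, are used only where that table is named. The mitochondrially encoded genes (37) are listed at 0.

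The main test was limma 3.58.1 (eBayes with trend, R 4.3.3) on log2(FPM + 1) of all 12 libraries with 1 coefficient per group, after filterByExpr (minimum count 10) on recovered reads, which left 13782 genes. Genes were called below a Benjamini-Hochberg adjusted p of 0.05 over all genes. The corrected fit first subtracted a loess surface (span 0.5) of each library's deviations over the GC content and the length of each gene's longest GENCODE release 29 transcript (13571 genes). Alternatives were edgeR 4.0.16 and DESeq2 1.42.0 on recovered reads, RLE and upper-quartile factors, no filter, pseudocounts of 0.25 and 4, the replicate number as a block, only the 6 libraries compared, and each library left out. The limma fit was also run on simulated data as a check of the code, and the outcome is not given here. Counting floors of 3 reads cover counting error only.

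The members and gene lists were chosen with earlier results of these data known. Values in each library are given for the 5 members of highest mean and for members called at least once whose higher group averaged 1 FPM or more; up to 4 called genes per list and knockdown are named. PLEC, PTPRC and TNS2 were matched by gene identifier, and PECAM1 was not analysed here. The values of 1 member, of 2 listed genes and of 1 miRNA site are not reported here, although counts and medians include them. Sites were 7-base matches to miRNA bases 2 to 8.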

Additional observations from a re-analysis of the deposited data

How the results depend on the processing

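None of the 23 calls changed direction under the alternatives run. These alternatives refit the same libraries or a part of them, so a kept direction is no separate evidence. Against siC, 8 members were called in siI1, 1 in siI2 and 3 in siI3. Without siC replicates 1 and 3 the counts were 0, 0 and 0. Leaving out 1 library gave 4 to 9, 0 to 7 and 1 to 5 members in those comparisons. Of all 13782 genes tested, these fits called 268 to 2602, 28 to 1572 and 89 to 2824. The other alternatives gave 6 to 10 members in siI1 and 2 to 4 in siI3, beside 481 to 2039 and 461 to 2318 of all genes. In siI2 edgeR and RLE factors gave 3, DESeq2 and upper-quartile factors 4, the corrected fit without siI3 replicate 3 (chosen after seeing the data) 2, and no filter, the GC and length correction, the same with the replicate block, and only the 6 libraries 0. In the same order, these fits called 185, 198, 730, 202, 313, 77, 187, 117 and 37 of all genes (45148 tested without the filter). Between siI1 and siI2 (2 members) DESeq2 gave 4, no filter 0, the correction 6, with the replicate block 5 and without siI3 replicate 3 6, and leaving out 1 library 0 to 3. Over all genes these called 554, 172, 645, 512, 924 and 127 to 486. Between siI1 and siI3 (8) no filter gave 4 and leaving out 1 library 3 to 10, beside 594 and 546 to 1223 of all genes. Between siI2 and siI3 (1) DESeq2 gave 4, the correction 4, with the block 4 and without siI3 replicate 3 5, and leaving out 1 library 1 to 3. Over all genes these called 557, 513, 406, 975 and 112 to 410. The cause of these differences was not tested. Over all genes, DESeq2 called 2031, 730 and 2318 genes in siI1, siI2 and siI3 against siC where limma called 1128, 208 and 1460. The replicate numbers are not stated to mark shared cultures, and deviations of same-numbered libraries correlated between -0.45 and 0.45 (18 pairs) against -0.32 to 0.43 for other pairs (36). With the replicate block, 7, 0 and 2 members were called against siC, beside 696, 95 and 745 of all genes. For siI1 against siI2, siI1 against siI3 and siI2 against siI3 the block gave 0, 6 and 1, beside 244, 807 and 192. With the block 7 of the 23 calls ended. Depth limits the 12 untested members and those below about 5 FPM, where a few reads set each value.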

Other observations

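CDH5, the cadherin of endothelial junctions, was read at 54.8 to 71.8 FPM in siC, 134 to 149 FPM in siI1, 107 to 126 FPM in siI2 and 93.7 to 109 FPM in siI3, while the other endothelial marker analysed, VWF, had 15 reads or fewer. The 4 mesenchymal markers summed to 1692 to 1775 FPM in siC, 2757 to 3138 in siI1, 1444 to 1750 in siI2 and 1108 to 1322 in siI3. The 8 epithelial and ovarian markers summed to 653 to 1054 FPM in siC, 1157 to 1465 in siI1, 815 to 1160 in siI2 and 493 to 786 in siI3. The mesenchymal markers did not move together: in siI1 the mean of SPARC was 2308 FPM against 626 in siC and that of CDH2 67.2 against 54.8, while VIM was at 484 against 914 and FN1 at 51.8 against 134. In siI3 SPARC was at 122% of its siC mean and the other 3 were below theirs. The part of these markers in any result was not tested.

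Between siI1 and siI3, COL4A1 and COL4A2 differed by 1.79 and 1.63 log2 units (limma adjusted p = 7.02e-05 and 0.000254; corrected 1.67 and 1.62), FBN1 by 2.34 (adjusted p = 7.01e-06; corrected 2.21) and THBS1 by 2.62 (adjusted p = 5.59e-08; corrected 2.50), all higher in siI1. TNC, the gene of tenascin C, was lower in siI1 by 1.87 (adjusted p = 6.73e-06; corrected difference -2.00), and COL17A1, a hemidesmosome collagen, by 1.02 (adjusted p = 0.0311; corrected difference -1.09). The log2 difference of ITGB5, 2.66, lies beside that of THBS1.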
